A study of Mus musculus with 8 samples.

Results

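The 7 genes described here are Npsr1, Mylk, Ppp1cc, Myo3a, Rubcnl, Trmt13 and A330049N07Rik. They were chosen by their measured RNA level in oligodendrocytes, with results of these data known, as genes with the strongest differences between inbred mouse strains in the oligodendrocytes of the striatum. They are 7 of the 32285 genes in the count matrices, of which 9082 had enough counts in oligodendrocytes to be fitted. Because the strain differences in oligodendrocytes chose them, their levels there are given as a description, without a test. Tests are given for other cell types, for which the values were not part of the choice, although the nuclei come from the same 32 mice.

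The study measured nuclear RNA and open chromatin in the same nuclei (10x Genomics Multiome) from frozen striatum, the part of the forebrain that takes in cortical and dopamine signals. The mice were untreated as far as the labels say, 12 weeks old and of 8 inbred strains: A/J, C57BL/6NJ, 129S1/SvImJ, NOD/ShiLtJ, NZO/HlLtJ, CAST/EiJ, PWK/PhJ and WSB/EiJ. These are the founders of the Collaborative Cross, and CAST/EiJ, PWK/PhJ and WSB/EiJ were derived from wild mice. Each of 4 batches was a pool of nuclei from 1 mouse of each strain, mixed before loading, with 4 male and 4 female mice per batch, so a strain has 4 mice and the batch number pairs mice across strains. The strain called C57BL/6NJ here is written so in the deposited table of nuclei, whereas the design text writes C57BL/6J, and the text writes NZO/H1LtJ for the strain that the table calls NZO/HlLtJ. An inbred strain is close to 1 genome, so that 8 strains are 8 genotypes and the 4 mice of a strain repeat the same genotype. The sex of single mice was not used here.

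Oligodendrocytes are the cells that wrap axons of the brain in myelin. The 7 genes share no pathway. Npsr1 is the receptor for neuropeptide S, a G protein-coupled receptor known from neurons of arousal and anxiety circuits. Mylk is myosin light chain kinase, which drives contraction of smooth muscle by phosphorylating myosin, and Ppp1cc is a catalytic subunit of protein phosphatase 1, an enzyme family that removes such phosphates among many others. Myo3a is a class III myosin, a motor with a kinase domain that is best known from the stereocilia of hair cells in the inner ear. Rubcnl, also called Pacer, is a relative of the autophagy inhibitor Rubcn and promotes the maturation of autophagosomes. Trmt13 is a methyltransferase that modifies transfer RNA, and A330049N07Rik is a long non-coding RNA without an assigned function.

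A total of 55672 annotated nuclei in 18 clusters were analysed, 12066 of them (21.7%) oligodendrocytes. A mouse contributed 133 to 1011 oligodendrocyte nuclei with 165465 to 1883033 counts, where a count is 1 unique molecular identifier (UMI). The median was 1640 UMIs in an oligodendrocyte nucleus, with strain medians of 1535 to 1697, against 6505 in Drd1+ neurons. Batch 3 stood apart: its kept nuclei had a median of 3232 UMIs over all clusters, against 4593 to 4931 in the other batches, and the oligodendrocyte levels are also given without it. Of 54141 barcode sequences, 1517 occurred in more than 1 batch and were kept as separate nuclei. All 10 oligodendrocyte markers, among them Mbp, Mog and Mag, were highest in the cluster called oligodendrocytes. Drd1+ neurons held 0.473% to 12.1% of the oligodendrocyte level of these markers, and macrophages 4.07% to 45.8%, so that RNA of myelin genes was present in nuclei of other types.

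Coordinates and sequences are those of RefSeq for the build GRCm38.p6. Npsr1 lies at chr9:24097912-24317590, Mylk at chr16:34745199-35002436, Ppp1cc at chr5:122154967-122175273, Myo3a at chr2:22227503-22618252, Rubcnl at chr14:75015987-75052537, Trmt13 at chr3:116576061-116614587 and A330049N07Rik at chr10:72973303-73086705. The 7 genes thus lie on 7 chromosomes. Trmt13 overlaps Lrrc39 and Sass6, Mylk contains 1700119H24Rik and E130310I04Rik, Myo3a contains Gm13342 and Rubcnl contains LOC115488416. Whether the counting used strand is not given in the sources used here, so reads of such overlapping genes may not be separable, and Trmt13 is uncertain for this reason. The stretches printed next, 5′ to 3′ on the strand of the gene, are bases just before 4 of the genes. For each of these 4 the listed window of 250 bases begins outside the gene. Trmt13 has such a window too (chr3:116614588-116614837, minus strand), beside another inside the gene, and is not printed. The windows of Npsr1 (chr9:24097768-24098017) and Rubcnl (chr14:75015777-75016026) run on into the gene, and only their part before it is printed.
Npsr1 (chr9:24097768-24097911, plus strand): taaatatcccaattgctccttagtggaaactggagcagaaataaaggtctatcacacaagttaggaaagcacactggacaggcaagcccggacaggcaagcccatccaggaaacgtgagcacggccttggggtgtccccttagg
Rubcnl (chr14:75015777-75015986, plus strand): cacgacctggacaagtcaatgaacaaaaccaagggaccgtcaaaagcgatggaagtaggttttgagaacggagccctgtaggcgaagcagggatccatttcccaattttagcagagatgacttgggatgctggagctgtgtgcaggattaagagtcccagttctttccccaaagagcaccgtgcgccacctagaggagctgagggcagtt
Myo3a (chr2:22227253-22227502, plus strand): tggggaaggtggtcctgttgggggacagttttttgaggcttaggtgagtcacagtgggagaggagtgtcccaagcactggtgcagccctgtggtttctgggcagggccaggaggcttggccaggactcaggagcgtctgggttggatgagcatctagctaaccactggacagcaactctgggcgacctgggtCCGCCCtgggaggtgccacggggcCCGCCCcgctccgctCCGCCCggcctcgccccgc
A330049N07Rik (chr10:73086706-73086955, minus strand): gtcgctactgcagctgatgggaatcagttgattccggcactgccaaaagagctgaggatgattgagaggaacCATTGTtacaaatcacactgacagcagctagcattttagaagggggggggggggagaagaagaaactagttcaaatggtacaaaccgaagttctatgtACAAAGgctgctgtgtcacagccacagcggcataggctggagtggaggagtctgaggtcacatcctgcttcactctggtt
Capitals mark matches on either strand to 4 short motifs, which were searched in the 250 bases before every start listed in the table. They are the core of the myelin regulatory factor site (CTGGCAC or CTGGTAC), a SOX site (ACAAAG or ACAATG), a GC box (GGGCGG) and a TATA box (TATAAA). Over 32851 such windows of all genes, 5.93% held the first, 25.2% the second, 32.7% the third and 12.4% the fourth. Myo3a has 3 GC boxes and A330049N07Rik has 2 SOX matches, while the whole windows of Npsr1 and Rubcnl hold none of these letters. Among the members not printed, Ppp1cc has 6 GC boxes and 1 SOX match, and Mylk has 1 match to the myelin regulatory factor core. The listed windows of Trmt13 hold none of the 4 motifs. For peaks the window at a listed start was wider, 300 bases. A deposited peak of open chromatin overlapped such a window of 6 of the 7 genes, all but Mylk, as it did for 53.1% of all windows. The letters are those of the reference genome, which is from a C57BL/6J mouse, and the sequence of the other strains was not analysed here.

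Over all nuclei of a cluster, 5 of the 7 genes reached their highest level in oligodendrocytes: Npsr1, Myo3a, Ppp1cc, Trmt13 and A330049N07Rik. Levels in this paragraph are CPM, counts per 1e+06 counts of the cluster, pooled over mice, and brackets are exact Poisson intervals at 95%, which cover counting error only. A330049N07Rik was at 242 CPM (235 to 248) in oligodendrocytes and at 13.3 CPM (8.70 to 19.5) in the second-ranked cluster, the Polydendrocyte/Oligodendrocyte nuclei that hold precursor cells. Npsr1 was at 84.3 CPM (80.4 to 88.3) in oligodendrocytes and next in the second Slc17a7+ neuron cluster, at 16.1 CPM (12.3 to 20.7). Both were low in most other clusters, whereas Trmt13, Ppp1cc and Myo3a were present in all 18. Trmt13 ranged from 34.7 CPM in Drd1+ neurons to 252 CPM in oligodendrocytes. Ppp1cc ran from 32.2 CPM in Chat+ interneurons to 169 CPM in oligodendrocytes, with Drd2+ and Drd1+ neurons next at 93.7 and 91.4 CPM. Myo3a ran from 12.9 CPM in the second Slc17a7+ cluster to 106 CPM in oligodendrocytes, with ependyma next at 65.0 CPM.

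The other 2 genes were higher elsewhere. Mylk was highest in mural cells, the contractile cells of vessel walls, at 128 CPM (109 to 148), and in endothelium at 82.4 CPM, against 43.3 CPM in oligodendrocytes. Oligodendrocytes ranked 4th of the 18 clusters for Mylk. Rubcnl was highest in macrophages, at 124 CPM (113 to 136), then in the rare cluster Unknown_2 at 109 CPM (68.1 to 164), against 15.8 CPM in oligodendrocytes, or 24.96 CPM there with mice weighted equally. These pooled levels hide the strain differences, since a gene read in 1 strain of 8 is diluted by the other 7.

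**Figure D1:**
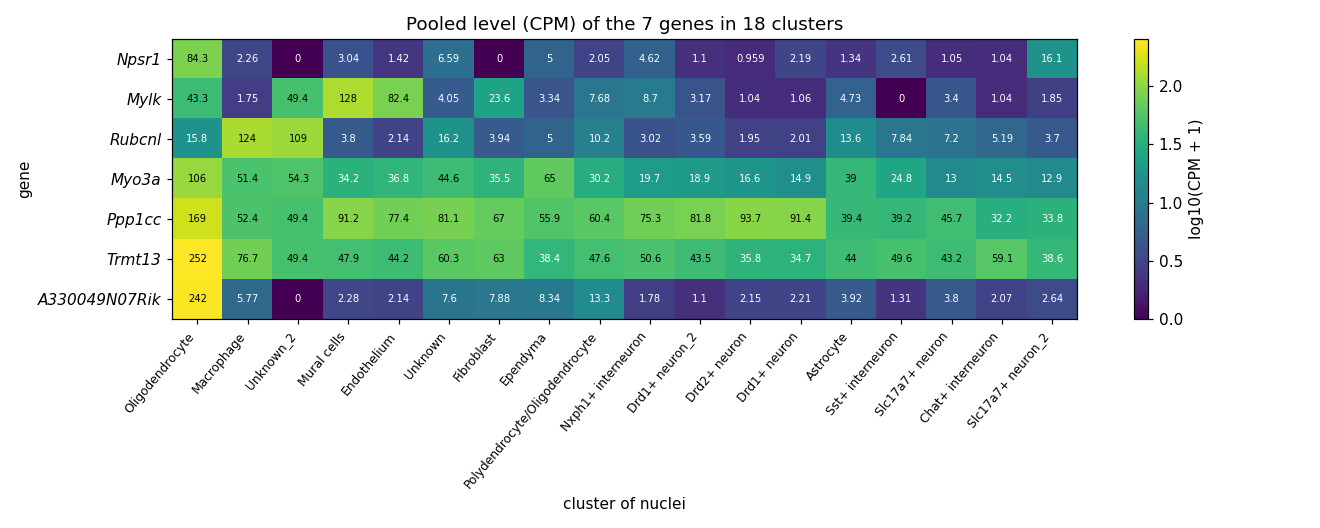
Pooled level of the 7 genes (rows) in the 18 clusters (columns, ordered by the mean over the genes); each cell prints the CPM and is coloured by log10(CPM + 1). Npsr1, Myo3a, Ppp1cc, Trmt13 and A330049N07Rik are highest in the oligodendrocyte column, Mylk in mural cells and Rubcnl in macrophages; colours compare clusters within a gene.

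Levels per mouse are CPM over a library total scaled by the trimmed mean of M-values, 1 library being the summed nuclei of a mouse in a cluster. The strain term of the fit ranked these genes 2nd (Npsr1), 7th (A330049N07Rik), 8th (Myo3a), 10th (Mylk), 15th (Rubcnl), 17th (Ppp1cc) and 19th (Trmt13) by F among the 9082 genes fitted in oligodendrocytes. The first-ranked gene, Cwc22 with F = 731, is not among the 7. Their F ran from 150 (Trmt13) to 517 (Npsr1), which only restates how they were chosen. The plot of CPM by strain shows no pattern common to all 7 genes, although CAST/EiJ and PWK/PhJ were the 2 highest strains for Rubcnl, Myo3a and Trmt13.

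**Figure D2:**
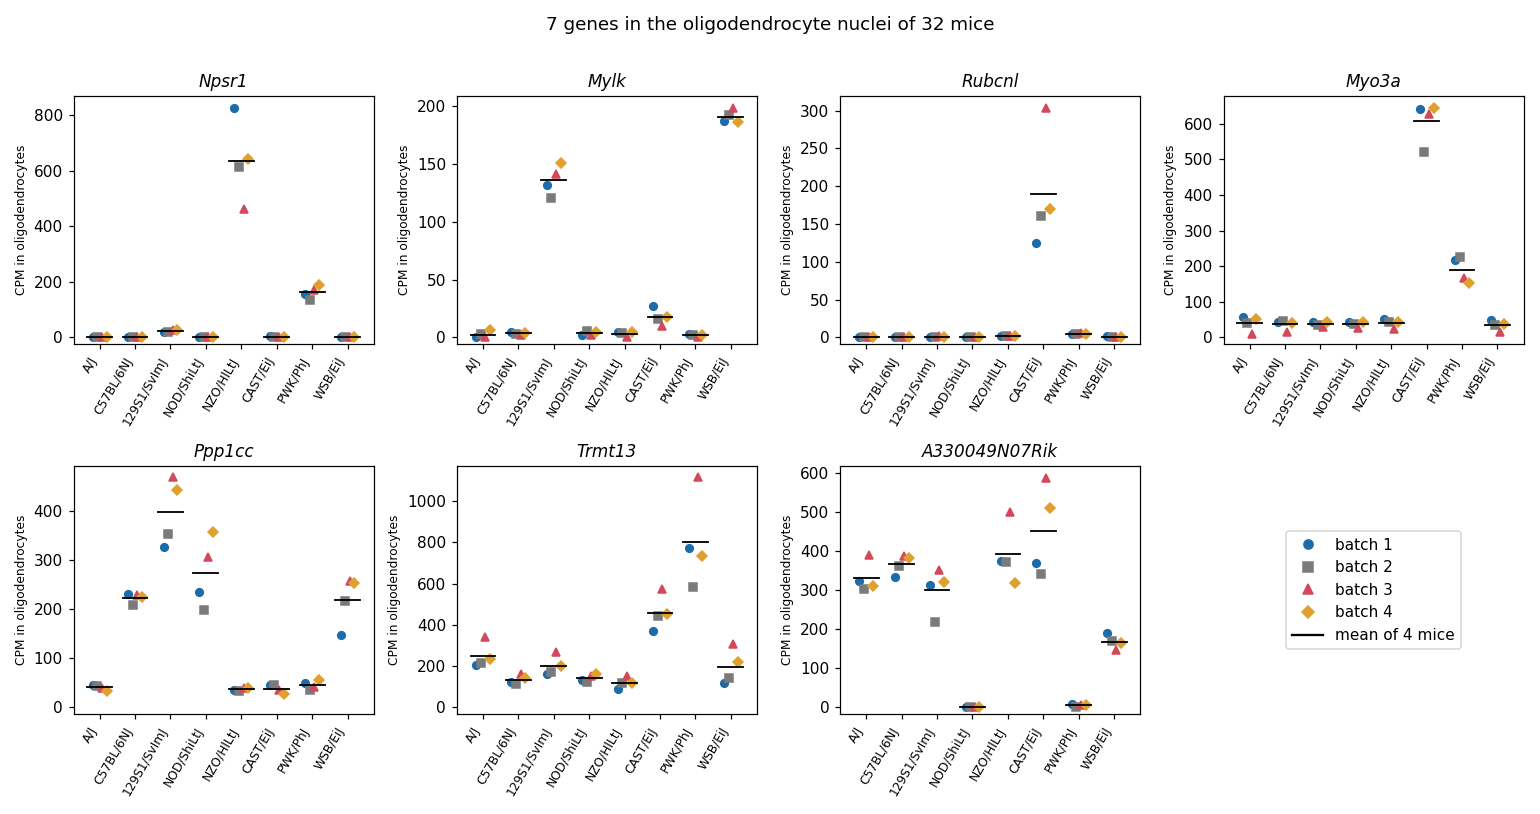
CPM of each gene in the oligodendrocytes of single mice (vertical axes, linear, 1 panel per gene) by strain (horizontal axes); a symbol is 1 mouse, its shape and colour the batch, and the line the mean of 4 mice. The highest strain is NZO/HlLtJ for Npsr1, WSB/EiJ for Mylk, CAST/EiJ for Rubcnl, Myo3a and A330049N07Rik, 129S1/SvImJ for Ppp1cc and PWK/PhJ for Trmt13.

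Npsr1, the receptor, was read almost only in 3 strains. The 4 NZO/HlLtJ mice were at 826, 612, 462 and 643 CPM (batches 1 to 4), the PWK/PhJ mice at 156, 134, 172 and 187 CPM, and the 129S1/SvImJ mice at 19.9, 19.3, 28.2 and 27.8 CPM. The ranges of these 3 strains did not overlap with one another or with any other strain. In the other 5 strains together no mouse was above 3.23 CPM: C57BL/6NJ had 4 counts in all, CAST/EiJ 3, WSB/EiJ 2, NOD/ShiLtJ 2 and A/J 1. The means were 636 ± 149.6 CPM in NZO/HlLtJ, 162 ± 22.4 CPM in PWK/PhJ and 23.8 ± 4.84 CPM in 129S1/SvImJ (SD, n = 4 each).

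Mylk, the kinase, was high in another pair of strains. WSB/EiJ mice were at 187, 192, 199 and 186 CPM and 129S1/SvImJ mice at 132, 121, 141 and 151 CPM. CAST/EiJ was intermediate, with mice at 27.4, 15.5, 10.1 and 17.2 CPM, and the other 5 strains had means of 1.88 to 3.49 CPM with overlapping ranges. WSB/EiJ (191 ± 5.78 CPM) was 102-fold above PWK/PhJ (1.88 ± 1.36 CPM, 5 counts), the lowest strain. Pooled over strains, mural cells and endothelium held more Mylk than oligodendrocytes, but within WSB/EiJ the pooled level was 193 CPM in oligodendrocytes, 98.5 CPM in mural cells and 82.5 CPM in endothelium. Within 129S1/SvImJ it was 135 CPM in oligodendrocytes, 134 CPM in mural cells and 86.3 CPM in endothelium. The mean over mice in 129S1/SvImJ endothelium fell from 86.3 to 54.1 CPM without the batch 4 mouse. In the rare cluster Unknown_2 the 2 WSB/EiJ nuclei held all 10 Mylk counts of the cluster (1385 CPM, exact Poisson interval 664 to 2548). In the oligodendrocyte libraries the 5 mural markers (Rgs5, Pdgfrb, Acta2, Myh11 and Tagln) summed to 0 to 27.2 CPM per mouse, at 10.3 to 21.8 CPM in WSB/EiJ and 0 to 18.2 CPM in PWK/PhJ, and none was at 0 throughout a strain. The 3 endothelial markers (Cldn5, Flt1 and Pecam1) summed to 0 to 36.2 CPM, and the part of either cell type in the Mylk level was not tested.

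Ppp1cc, the phosphatase subunit, divided the strains into 4 high and 4 low. The high strains were 129S1/SvImJ (325, 352, 468 and 441 CPM), NOD/ShiLtJ (235, 198, 306 and 357 CPM), C57BL/6NJ (230.2, 208, 228 and 224 CPM) and WSB/EiJ (147, 217, 257 and 252 CPM). Neighbours in this order overlapped in range. The low strains PWK/PhJ, A/J, CAST/EiJ and NZO/HlLtJ lay between 27.5 and 56.0 CPM in all 16 mice and overlapped with one another. The lowest mouse of the high strains, at 147 CPM, was thus above the highest of the low strains. The highest mean, 397 ± 68.5 CPM in 129S1/SvImJ, was 10.8-fold above the lowest, 36.7 ± 3.75 CPM in NZO/HlLtJ.

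Myo3a, the motor, was high in CAST/EiJ, with mice at 641, 522, 628 and 646 CPM. PWK/PhJ mice followed at 217, 227, 166 and 152 CPM, and these 2 strains did not overlap with each other or with the rest. In the other 6 strains the means lay between 34.5 CPM (WSB/EiJ) and 40.5 CPM (NZO/HlLtJ), and their ranges overlapped. CAST/EiJ (609 ± 58.5 CPM) was 17.7-fold above WSB/EiJ (34.5 ± 14.6 CPM). Even the lowest strain had 85 Myo3a counts, so the gene was read in all 8 strains.

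Rubcnl, the autophagy gene, was far higher in the oligodendrocytes of CAST/EiJ than in those of any other strain. CAST/EiJ mice were at 124, 161, 304 and 170.0 CPM, and the highest of these was the mouse of batch 3. PWK/PhJ followed without overlap, with mice at 4.32, 4.41, 5.91 and 4.15 CPM and 9 counts in all, and each NZO/HlLtJ mouse had 1 count. A/J, C57BL/6NJ, 129S1/SvImJ and WSB/EiJ had 1 count each and NOD/ShiLtJ had none. The CAST/EiJ mean was 189.6 ± 78.5 CPM, and 152 CPM without batch 3, while the limit of 3 counts over the strain that a count of 0 allows is 0.893 CPM in NOD/ShiLtJ. Pooled over strains, macrophages held more Rubcnl than oligodendrocytes, but within CAST/EiJ the pooled level was 167.6 CPM (exact Poisson interval 149.7 to 187) in oligodendrocytes and 71.7 CPM (44.9 to 108.5) in macrophages. The 5 macrophage and microglia markers (Csf1r, Cx3cr1, P2ry12, C1qa and Mrc1) summed to 42.1 to 65.6 CPM in the CAST/EiJ oligodendrocyte libraries and to 30.5 to 77.2 CPM over all 32 mice, with Mrc1 at 0 in 3 strains. Their part in the Rubcnl level was not tested.

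Trmt13, the transfer RNA methyltransferase, was read in all strains and formed a graded series. PWK/PhJ mice were at 775, 584, 1118 and 735 CPM and CAST/EiJ mice at 368, 443, 572 and 452 CPM, with no overlap between them. A/J mice followed at 208, 215, 340 and 236 CPM and overlapped with 129S1/SvImJ (201 ± 47.9 CPM) and WSB/EiJ (197 ± 84.6 CPM). NOD/ShiLtJ, C57BL/6NJ and NZO/HlLtJ were the lowest, with overlapping ranges from 87.7 to 164 CPM. The span from NZO/HlLtJ (118 ± 25.7 CPM) to PWK/PhJ (803 ± 226 CPM) was 6.78-fold.

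A330049N07Rik, the long non-coding RNA, was distinguished by its low strains. NOD/ShiLtJ had 1 count in 4 mice, and PWK/PhJ mice were at 9.71, 2.203, 5.91 and 6.23 CPM (14 counts). WSB/EiJ mice were at 190.2, 169, 147 and 163 CPM and overlapped with no other strain. The other 5 strains, CAST/EiJ (451 ± 117 CPM), NZO/HlLtJ (391 ± 76.9 CPM), C57BL/6NJ (367 ± 24.2 CPM), A/J (331 ± 39.3 CPM) and 129S1/SvImJ (301 ± 58.1 CPM), each overlapped with their neighbour in this order. A gene at 367 CPM in C57BL/6NJ was therefore hardly read in NOD/ShiLtJ and PWK/PhJ. Reads were counted on mm10, and the part of reads that do not match this reference in low counts was not tested.

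For 5 of the 7 genes the highest strain lay above all 28 mice of the other strains: Npsr1, Mylk, Rubcnl, Myo3a and Trmt13. CAST/EiJ was the highest strain for 3 genes, and PWK/PhJ ranked second for Npsr1, Rubcnl and Myo3a. The summed oligodendrocyte markers moved less between strains than the genes did, from a mean of 22863 CPM in C57BL/6NJ to 25969 CPM in PWK/PhJ. The 4 markers of newly formed oligodendrocytes (Bmp4, Enpp6, Bcas1 and Tcf7l2) had summed means of 659 CPM in WSB/EiJ to 1052 CPM in NZO/HlLtJ, with Bmp4 at 0 in CAST/EiJ and NZO/HlLtJ. Their part in the differences of the 7 genes was not tested.

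The batches moved some of these genes in several strains at once. Trmt13 was highest in the batch 3 mouse in 7 of 8 strains, and the median ratio of batch 3 to the mean of the other batches was 1.45. Myo3a was lowest in batch 3 in 6 of 8 strains, with a median ratio of 0.549. A330049N07Rik was highest in batch 3 in 5 of the 6 strains of at least 10 CPM (median ratio 1.24), and Ppp1cc was highest there in 3 of 8 (1.08). Without batch 3 the highest strain mean was 698 CPM for Trmt13 (PWK/PhJ, 6.48-fold above NZO/HlLtJ), 603 CPM for Myo3a (CAST/EiJ, 14.9-fold above 129S1/SvImJ), 373 CPM for Ppp1cc (129S1/SvImJ, 10.5-fold above NZO/HlLtJ) and 406 CPM for A330049N07Rik (CAST/EiJ). For Npsr1 it was 694 CPM (NZO/HlLtJ) and for Mylk 189 CPM (WSB/EiJ, 75.3-fold above PWK/PhJ). The highest strain of each gene was the same with and without this batch. Whether the shallower nuclei of batch 3 took part in them was not tested.

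In single nuclei the high strains differed by the share of nuclei with a UMI. Npsr1 was read in 538 of 1271 NZO/HlLtJ oligodendrocyte nuclei, 42.3% (exact binomial interval at 95%, 39.6% to 45.1%), in 16.6% of PWK/PhJ nuclei and in 3.20% of 129S1/SvImJ nuclei. It was read in 0.0476% to 0.264% of the nuclei of the other 5 strains. With each nucleus thinned to 1000 UMIs, which left out 59 to 153 shallower nuclei per strain, the share was 35.0% in NZO/HlLtJ, 13.6% in PWK/PhJ and 2.13% in 129S1/SvImJ. Nuclei of all strains shared a pool, and the part of free RNA in these shares was not tested. Rubcnl was read in 20.4% of CAST/EiJ nuclei, 0.641% of PWK/PhJ nuclei, 0.315% of NZO/HlLtJ nuclei and 0 of 1889 NOD/ShiLtJ nuclei. A count of 0 is taken here to allow 3 nuclei, a share of up to 0.159%, which limits nuclei with a UMI, not nuclei that hold the RNA, and covers counting error only. A330049N07Rik was read in 38.4% of NZO/HlLtJ nuclei and 0.0529% of NOD/ShiLtJ nuclei. Myo3a was read in 57.1% of CAST/EiJ nuclei against 6.06% to 6.80% in the 6 low strains, Trmt13 in 56.4% of PWK/PhJ nuclei, Ppp1cc in 46.2% of 129S1/SvImJ nuclei and Mylk in 25.5% of WSB/EiJ nuclei.

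Had every nucleus of a strain carried the same level, 63.3% of NZO/HlLtJ nuclei would have held an Npsr1 UMI at these depths. The measured 42.3% is lower, so the counts were more concentrated in some nuclei, with up to 17 UMIs in 1 nucleus. A330049N07Rik also fell short of this level, with 37.4% measured against 51.6% in CAST/EiJ. Mylk came close to it, with 25.5% against 27.4% in WSB/EiJ, as did Ppp1cc, with 46.2% against 48.4% in 129S1/SvImJ. Mice of a strain differed too, and the difference between nuclei was not separated from that between mice.

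**Figure D3:**
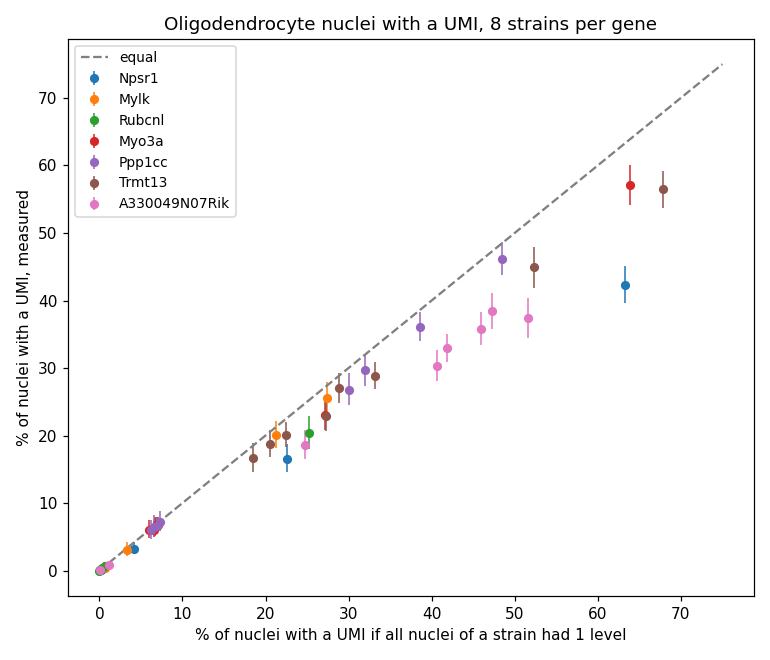
Share of oligodendrocyte nuclei with at least 1 UMI of a gene (vertical axis, percent, bars are exact binomial intervals at 95%) against the share if all nuclei of the strain had the same level (horizontal axis, percent); a point is 1 strain and a colour 1 gene. The NZO/HlLtJ point of Npsr1 (63.3% on the horizontal axis, 42.3% on the vertical) lies farthest below the dashed line of equality, followed by A330049N07Rik in CAST/EiJ (51.6%, 37.4%) and Trmt13 in PWK/PhJ (67.8%, 56.4%).

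Cell types that took no part in the choice of the genes show how far the strain pattern reaches beyond oligodendrocytes. The strain term was tested with edgeR's quasi-likelihood test, with batch in the model and Benjamini-Hochberg adjustment over all genes of a cluster, and calls were made below an adjusted p of 0.05. A gene enters a test only if enough libraries pass a filter on low counts, and a gene that passes through its high strain alone had to differ. Rubcnl in Drd1+ neurons, Drd2+ neurons and astrocytes and A330049N07Rik in both neurons passed through the 4 CAST/EiJ libraries alone, so they are described without their p. The share called among the members tested is likewise a description. In Drd1+ neurons, the projection neurons of the direct pathway, all 6 members tested were called, beside 61.7% of all 13431 genes tested. In Drd2+ neurons, those of the indirect pathway, all 5 members tested were called, beside 55.9% of all genes. Mylk was tested in neither, and Npsr1 not in Drd2+ neurons. In astrocytes 2 of 4 members were called (21.5% of all genes), in macrophages 1 of 2 (24.8%), in the second Drd1+ cluster 2 of 2 (17.3%) and in endothelium 1 of 4 (3.23%). In Nxph1+ interneurons edgeR called 0 of 2 (1.53% of all genes), with 1 at an unadjusted p under 0.05 and 0 by DESeq2, and no member had enough counts in the Polydendrocyte/Oligodendrocyte cluster (1.24%). With the background this high in projection neurons, the members' calls there do not set them apart, and the strain that was high carries the information.

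Rubcnl was high in CAST/EiJ in Drd1+ neurons, Drd2+ neurons and astrocytes as well. In Drd1+ neurons the CAST/EiJ mice were at 15.5, 10.9, 19.9 and 24.8 CPM and no other mouse was above 1.13 CPM. Drd2+ neurons gave 15.2, 14.4, 25.2 and 23.1 CPM in CAST/EiJ against at most 0.564 CPM elsewhere. In astrocytes the CAST/EiJ mice were at 119, 89.1, 157 and 127 CPM and the other 28 at most at 7.0 CPM. CAST/EiJ therefore lay above all mice of the other strains in each of these 3 cell types. Where the gene or the cluster had too few counts for a test, CAST/EiJ held 20 of 20 Rubcnl counts of the Polydendrocyte/Oligodendrocyte nuclei, 30 of 32 in the cluster Unknown, 49 of 55 in the first Slc17a7+ neurons and 6 of 6 in Sst+ interneurons. Its share was lower in the second Slc17a7+ neurons (10 of 14), endothelium (5 of 9), Nxph1+ interneurons (9 of 17) and ependyma (3 of 6). In macrophages, where every strain had counts of the gene, CAST/EiJ did not stand above the others: A/J was highest (231, 132, 214 and 134 CPM) and CAST/EiJ lowest (95.1, 0, 101 and 95.0 CPM), with ranges of A/J and CAST/EiJ that did not overlap (adjusted p = 0.00556). Without batch 2, whose CAST/EiJ library held no Rubcnl count, this call was lost (adjusted p = 0.0933), and the other 3 CAST/EiJ mice lay within the ranges of NOD/ShiLtJ (62.5 to 114 CPM) and PWK/PhJ (53.8 to 133 CPM), so that the lowest rank of CAST/EiJ rests on that library. Across the 8 strains the means of log2 CPM in macrophages and in oligodendrocytes had r = -0.71, against 0.86 for astrocytes and oligodendrocytes, values of 8 points that share mice and pools. The macrophage value includes the CAST/EiJ library without a count, and r was not computed without it. CAST/EiJ alone stood high in oligodendrocytes, so both values lean on this strain.

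A330049N07Rik in Drd1+ and Drd2+ projection neurons was highest in CAST/EiJ, above every mouse of the other strains. Its Drd1+ neurons were at 17.1, 11.9, 25.3 and 10.97 CPM and all other mice at or below 1.70 CPM, and its Drd2+ neurons at 23.0, 11.8, 14.2 and 17.7 CPM against at most 2.26 CPM. The strains C57BL/6NJ and NZO/HlLtJ, which held 367 and 391 CPM in oligodendrocytes, were at 0.432 and 0.462 CPM in Drd1+ neurons. These 2 strains, high in oligodendrocytes, were thus near the low strains in Drd1+ neurons. In astrocytes it had 44 counts in all, too few for the test. The share of CAST/EiJ Drd1+ nuclei with a UMI was 9.26%, close to the 9.35% that 1 level in all nuclei would give.

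**Figure D4:**
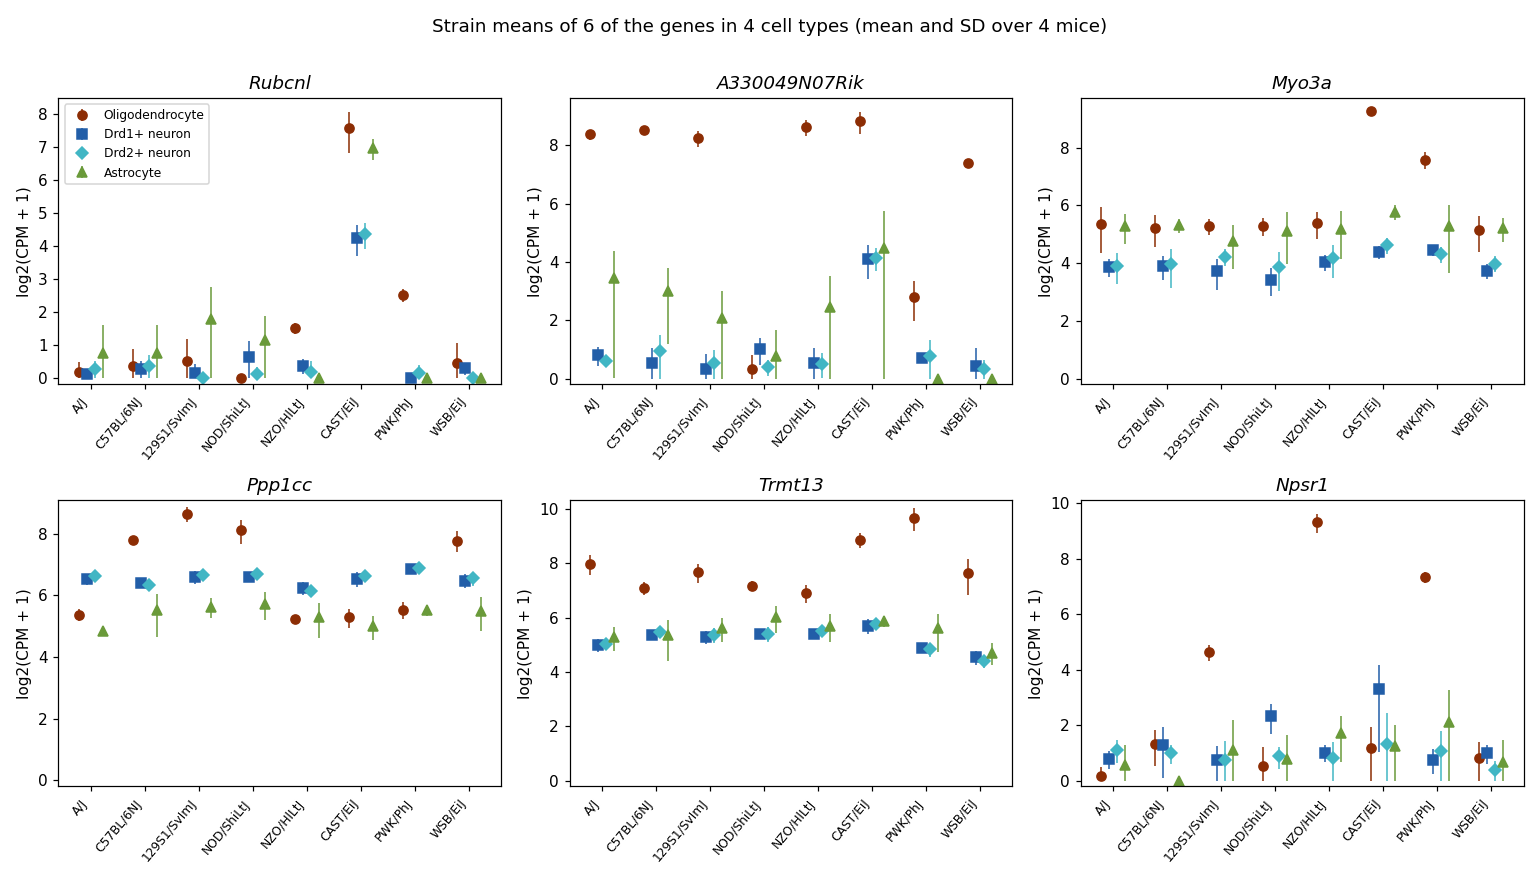
Mean of 4 mice on the scale log2(CPM + 1) (vertical axes) by strain (horizontal axes) for 6 genes, with bars from the mean minus to the mean plus 1 SD, in oligodendrocytes, Drd1+ neurons, Drd2+ neurons and astrocytes. Rubcnl is raised in CAST/EiJ in all 4 cell types, A330049N07Rik is raised in Drd1+ and Drd2+ neurons in CAST/EiJ only, and the oligodendrocyte pattern of Ppp1cc and Trmt13 is not seen in these neurons.

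Myo3a followed part of its oligodendrocyte order in Drd1+ and Drd2+ neurons, over a narrower range. In Drd1+ neurons PWK/PhJ (23.9, 17.6, 22.6 and 19.6 CPM) and CAST/EiJ (24.7, 19.0, 17.7 and 17.9 CPM) were the highest strains, and NOD/ShiLtJ the lowest (9.78 ± 3.49 CPM), a 2.14-fold span with overlapping ranges between neighbours (edgeR adjusted p = 8.78e-05). In Drd2+ neurons CAST/EiJ was highest (23.6 ± 4.84 CPM) and NOD/ShiLtJ again lowest (13.6 ± 6.41 CPM), with an adjusted p of 0.0120. The latter call was lost without batch 2 (adjusted p = 0.1302), without batch 3 (0.0672) and without the batch term (0.300). Endothelium repeated the 2 high strains: PWK/PhJ mice were at 99.1, 68.1, 40.3 and 182 CPM and the 3 CAST/EiJ mice with a library at 107, 131 and 51.4 CPM, while no other mouse was above 38.9 CPM (adjusted p = 0.00136). The gene passed the filter through 2 PWK/PhJ and 2 CAST/EiJ libraries alone, so the p is no support. This call was lost without batch 1 (adjusted p = 0.0888) or batch 2 (0.0886). The test did not call Myo3a in astrocytes (adjusted p = 0.725), where CAST/EiJ also had the highest mean (53.8 ± 9.34 CPM).

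Ppp1cc in Drd1+ and Drd2+ neurons did not show the division into 4 high and 4 low strains. PWK/PhJ, a low strain in oligodendrocytes, was the highest in Drd1+ neurons (115, 102, 120 and 119 CPM) and NZO/HlLtJ the lowest (68.1, 67.2, 72.6 and 90.8 CPM), a 1.52-fold span (edgeR adjusted p = 0.00257). In Drd2+ neurons PWK/PhJ (117 ± 11.4 CPM) and NZO/HlLtJ (68.9 ± 7.71 CPM) again held the ends (adjusted p = 2.00e-07), and the same strains did so in the second Drd1+ cluster (126 ± 12.4 and 55.6 ± 19.6 CPM, adjusted p = 0.0189). The Drd1+ call was lost without batch 1 (adjusted p = 0.0750), and that of the second Drd1+ cluster without batch 1 (0.127), without batch 3 (0.217) and in DESeq2 (0.0680). The r of strain means with oligodendrocytes was 0.03 in Drd1+ and 0.05 in Drd2+ neurons. In astrocytes, where r was 0.76, no difference was called (adjusted p = 0.244). The low strains of the oligodendrocytes, at 36.7 to 45.3 CPM, were near the astrocyte means of 27.4 to 52.1 CPM.

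Trmt13 in Drd1+ and Drd2+ neurons was highest in CAST/EiJ and lowest in WSB/EiJ. Drd1+ neurons of CAST/EiJ mice were at 44.6, 42.8, 64.5 and 49.96 CPM and those of WSB/EiJ mice at 22.4, 16.6, 26.1 and 23.5 CPM (edgeR adjusted p = 1.87e-10), and Drd2+ neurons at 52.7 ± 4.21 and 20.2 ± 3.64 CPM (adjusted p = 1.38e-12). PWK/PhJ, the highest strain in oligodendrocytes at 803 CPM, was second lowest in both by these means, at 28.5 ± 1.13 and 27.5 ± 5.14 CPM, although in Drd1+ neurons the level pooled over nuclei without scaling was lower in A/J (28.2 CPM) than in PWK/PhJ (29.2 CPM). The second Drd1+ cluster gave 59.3 ± 17.1 CPM in CAST/EiJ and 25.6 ± 2.80 CPM in WSB/EiJ (adjusted p = 0.0366), with the batch 3 mouse of CAST/EiJ at 84.8 CPM and the others at 48.6 to 52.4 CPM, a call that was lost without any 1 of the 4 batches (adjusted p = 0.0976 to 0.205) and in DESeq2 (0.132). In astrocytes WSB/EiJ was lowest (25.3 ± 6.91 CPM) and NOD/ShiLtJ highest (63.1 ± 21.1 CPM, adjusted p = 0.0284), a call lost without batch 1 (0.223), batch 3 (0.0540) or batch 4 (0.0821) and in DESeq2 (0.0511). Macrophages, where PWK/PhJ had the highest mean (119 ± 62.2 CPM), were not called (adjusted p = 0.268). Over the 8 strains r with oligodendrocytes was -0.17 in Drd1+ neurons and 0.80 in macrophages.

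Npsr1 in Drd1+ neurons was highest in CAST/EiJ, a strain with 3 counts in oligodendrocytes. The CAST/EiJ mice were at 10.8, 19.3, 1.07 and 4.87 CPM and the NOD/ShiLtJ mice at 5.76, 5.37, 2.26 and 2.73 CPM, with overlap, and the other 6 strains had means of 0.686 to 1.44 CPM (edgeR adjusted p = 4.75e-08). Of the 6 libraries that carried the gene through the filter, 3 were from CAST/EiJ and 3 from C57BL/6NJ and NOD/ShiLtJ. The filter needed 4, so without CAST/EiJ too few would have passed, and the p is a description. The 115 CAST/EiJ counts came from 41 of 1781 nuclei (2.30%), against 6.23% if all nuclei had 1 level, and 1 nucleus held 24 of them. NZO/HlLtJ, at 636 CPM in oligodendrocytes, was at 1.02 ± 0.428 CPM in these neurons. In the second Slc17a7+ neurons, too small to test, the order differed again: WSB/EiJ had 16 of the 61 Npsr1 counts (48.7 CPM, exact Poisson interval 27.8 to 79.0) and NZO/HlLtJ none. In several further clusters where Npsr1 had too few counts for a test, a strain high in oligodendrocytes led. NZO/HlLtJ held 11 of 13 Npsr1 counts in the cluster Unknown (27.3 CPM) and 5 of 6 in ependyma (19.6 CPM). PWK/PhJ held 6 of 9 in macrophages (11.3 CPM) and 4 of 15 in astrocytes (3.70 CPM). PWK/PhJ also led in the Polydendrocyte/Oligodendrocyte nuclei (1 of 4 counts, 5.44 CPM) and held the 1 count of the Chat+ interneurons. Some other untested clusters were led by strains low in oligodendrocytes. By pooled CPM, CAST/EiJ led in Drd2+ neurons (1.92 CPM), the second Drd1+ cluster (4 of 8 counts) and mural cells (3 of 4). In Nxph1+ interneurons the lead of CAST/EiJ rested on 4 of 26 counts (8.56 CPM, 2.33 to 21.9). NZO/HlLtJ held the most counts there, 10 (7.18 CPM, 3.44 to 13.2), and these intervals overlapped. NOD/ShiLtJ led in the first Slc17a7+ neurons (4 of 8). The strain term of Mylk could be tested outside oligodendrocytes only in endothelium, where it was not called (adjusted p = 0.9701), with WSB/EiJ at 89.9 ± 23.3 CPM (n = 3) and PWK/PhJ at 75.8 ± 44.6 CPM (n = 4). Single mice moved some Mylk means there. Without batch 2, C57BL/6NJ fell from 78.2 to 28.4 CPM and NOD/ShiLtJ from 53.2 to 18.6 CPM. In mural cells WSB/EiJ had 13 Mylk counts (98.5 CPM, 52.4 to 168) and PWK/PhJ 16 (111 CPM, 63.6 to 181), so that the pooled levels of these strains overlapped within counting error. Among Nxph1+ interneurons WSB/EiJ held 22 of the 49 Mylk counts, all of them in the mouse of batch 4 (127 CPM) and none in the other 3.

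The difference of strain effects between cell types was tested for 2 pairs outside oligodendrocytes, by the interaction of strain and cluster with the mouse as a block. Between Drd1+ and Drd2+ neurons 1 of 6 members, Npsr1, was called (edgeR adjusted p = 0.0412), beside 4.58% of all genes. CAST/EiJ was at 9.01 CPM in Drd1+ neurons, or 5.57 CPM without its batch 2 mouse. In Drd2+ neurons 3 of its 4 mice had no Npsr1 count and the fourth was at 5.92 CPM. Above the filter of the single clusters were 6 Drd1+ libraries, 3 of them from CAST/EiJ, and 1 Drd2+ library, of CAST/EiJ. The p of Npsr1 is therefore a description. The call was lost without batch 2 (adjusted p = 0.416), batch 3 (0.194) or batch 4 (0.0977) and without the mouse block (1). Between Drd1+ neurons and astrocytes 1 of 6 members, A330049N07Rik, was called (adjusted p = 0.0134), beside 11.4% of all genes, and the call was lost without batch 2 (0.0568). In Drd1+ neurons this gene is above the filter in CAST/EiJ alone, so the p is a description. The same limit holds for Rubcnl, with an adjusted p of 0.645 between Drd1+ and Drd2+ neurons and 0.722 between Drd1+ neurons and astrocytes.

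Related genes were described as lists, with the strain term in oligodendrocytes called for 34.8% of all genes fitted there (median F = 1.75) and in Drd1+ neurons for 61.7% (median F = 3.38). Of 19 genes of myosin light chain phosphorylation, the partners of Mylk, 14 were tested in oligodendrocytes and 2 called (median F = 1.16): Ppp1r14a, an inhibitor of myosin phosphatase, lowest in WSB/EiJ (155 ± 18.2 CPM) and highest in CAST/EiJ (229.8 ± 51.6 CPM), and Myh14, a non-muscle myosin heavy chain, lowest in PWK/PhJ (47.4 ± 8.89 CPM) and highest in NZO/HlLtJ (85.7 ± 13.1 CPM). Of 16 subunits of protein phosphatase 1, 15 were tested and 4 called (median F = 0.826), led by Ppp1r21 (66.9 ± 10.9 CPM in A/J to 163 ± 11.8 CPM in C57BL/6NJ) and Ppp1r9a, which anchors the enzyme to actin. None of these spans came near the 10.8-fold of Ppp1cc. Of 16 genes of the class III phosphatidylinositol 3-kinase and autophagosome maturation, 15 were tested and 3 called (median F = 1.53), among them Rubcn, lowest in CAST/EiJ (63.1 ± 9.51 CPM) and highest in NZO/HlLtJ (111 ± 13.5 CPM), and Uvrag, highest in CAST/EiJ (117 ± 9.97 CPM). Of 16 unconventional myosins and partners of Myo3a, 8 were tested and 4 called (median F = 2.24), led by Myo1e and Myo9a. Of 20 transfer RNA methyltransferases, 15 were tested and 5 called (median F = 1.27). Trmt9b was lowest in CAST/EiJ (1.77 ± 2.43 CPM) and highest in A/J (34.9 ± 4.56 CPM). Trmt10a was also lowest in CAST/EiJ (8.52 ± 2.61 CPM) and was highest in 129S1/SvImJ (51.0 ± 9.74 CPM), so neither had the order of Trmt13. None of the 6 genes of the neuropeptide S system and related receptors, neuropeptide S itself (Nps) included, had enough counts in either cell type. In Drd1+ neurons the same lists gave 10 of 15, 11 of 16, 8 of 15, 10 of 12 and 17 of 20 tested genes called.

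The genes next to the members in the genome were described in the same way. Of the 42 nearest RefSeq genes, 3 on each side of each member, 20 were in the matrix. In oligodendrocytes 9 were tested and 7 called, beside 34.8% of all genes (median F = 17.2, against 1.75 over all genes). In Drd1+ neurons 10 were tested and 8 called, beside 61.7% of all genes (median F = 6.43, against 3.38). Pcdh15, a protocadherin that starts 9572 bases from A330049N07Rik, was lowest in PWK/PhJ (45.1 ± 14.1 CPM) and highest in CAST/EiJ (475 ± 42.7 CPM, edgeR adjusted p = 6.36e-34), and NOD/ShiLtJ, with 1 count of the long non-coding RNA, was at 289 ± 36.1 CPM. Gm34776, which ends 138 bases from A330049N07Rik, had no counts in NOD/ShiLtJ and 2 in PWK/PhJ, against 10.4 to 22.3 CPM in the other 6 strains. Lrrc39, which overlaps Trmt13, had means of 82.1 ± 14.8 CPM in CAST/EiJ, 58.3 ± 13.0 CPM in PWK/PhJ and 7.71 to 15.5 CPM in the other strains (adjusted p = 3.12e-26). At a count filter of 16.92 CPM it entered mainly through CAST/EiJ (lowest mouse 61.3 CPM) and PWK/PhJ (45.7 CPM). The p of Lrrc39 is therefore no support, and its call among the 7 is a description. Sass6, also overlapping, ran from 64.3 ± 19.4 CPM in C57BL/6NJ to 139.5 ± 41.6 CPM in PWK/PhJ. Dpy19l1, 94188 bases from Npsr1, was highest in NZO/HlLtJ at 613 ± 59.4 CPM, with 253 to 374 CPM in the other strains. Lcp1, 78568 bases from Rubcnl, was highest in NOD/ShiLtJ (103 ± 13.1 CPM), the strain without Rubcnl counts, and second in CAST/EiJ (76.8 ± 28.1 CPM). Gad2, 2763 bases from Myo3a, was not called (adjusted p = 0.645). At least 1 neighbour was called for 4 of the 5 genes that had a tested neighbour, and Mylk and Ppp1cc had none that was tested. Lrrc39 and Sass6 overlap Trmt13, and their reads may not be separable from it.

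The genes most like each member in oligodendrocytes were named by the largest r of log2 CPM over the 32 libraries after centring on the batch. These points share strains, so any gene with the same high strain is alike, and no p is given. Gm34776 was nearest to A330049N07Rik (r = 0.91) and is its neighbour. For Rubcnl they were Gm40689 (0.97) and B530045E10Rik (0.97), of which the latter had a CAST/EiJ mean of 1166 ± 738 CPM, with other strain means up to 3.88 CPM. Cyp2j11 (0.93) and D030045P18Rik (0.90) were nearest to Trmt13, at 119.7 ± 19.2 and 107 ± 13.6 CPM in PWK/PhJ and 32.0 ± 12.9 and 17.2 ± 10.4 CPM in CAST/EiJ. E130102H24Rik (0.94) and Lrrc39 (0.93) were nearest to Myo3a, so that a gene overlapping Trmt13 on chromosome 3 followed Myo3a on chromosome 2. Gm5087 (0.89) and C4b (0.87), a complement gene, were nearest to Npsr1, with C4b at 70.5 ± 38.0 CPM in NZO/HlLtJ and 25.2 ± 3.97 CPM in PWK/PhJ. Ccdc50 (0.85) was alike to Mylk over a much narrower span, from 257 ± 30.4 CPM in C57BL/6NJ to 494 ± 83.1 CPM in WSB/EiJ. Ppp1cc had 1700047M11Rik (0.82) and Zfp14 (0.82), and A330049N07Rik had Prrt1 (0.82) as its second.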

How the data were processed

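Gene expression counts of 4 Multiome batches, deposited by the authors as raw UMI counts per gene and barcode, were used with the deposited table of strain and cluster per nucleus. Per the submitters' processing notes, bcl2fastq 2.20.0.422 and Cell Ranger ARC 2.0.0 were used with mm10. Per the labels, the authors assigned nuclei to strains by genotype, filtered on genes and mitochondrial reads, removed doublets and annotated clusters. Here the counts of each mouse were summed per cluster, keeping sums of at least 10 nuclei and clusters with at least 3 mice in every strain, which left 9 of 18 clusters. CPM used TMM-scaled totals. The strain term was fitted with edgeR 4.0.16 (quasi-likelihood, robust, R 4.3.3) on all genes passing filterByExpr, with batch as a block (the mouse in interactions) and Benjamini-Hochberg adjustment. The alternatives were DESeq2 1.42.0, no batch term, no filter, a minimum of 20 nuclei, other scalings of the levels and leaving out each batch. The pairing of mice by number comes from the design, in which a number is 1 pool. Scripts were tested on simulated data. Peaks were used only for overlap with upstream windows.

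The 7 genes, the related lists and the tests were chosen with earlier results of these data known. Genes named beyond the 7 were the 2 called genes of largest F in each list with a mean of at least 10 CPM, and the 2 genes of largest r with each member. One gene that this rule names is not reported here. Cwc22, Sass6, Dpy19l1, Lcp1 and Gad2 fall outside this rule and were chosen after their values were seen. A p-value of the strain term sets differences between strains against the spread between mice of a strain after batch. In the interactions the mouse is the block, and the spread is that within mice. All intervals cover counting error only.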

Additional observations from a re-analysis of the deposited data

Results flagged for a closer look

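Among 198 groups of 4 mice with at least 20 counts of a gene, over the 9 clusters tested, 6 held a mouse far from the other 3, where chance alone marks about 1 group in 20. The Myo3a level in C57BL/6NJ oligodendrocytes was 16.1 CPM in the batch 3 mouse and 41.5 to 44.9 CPM in the others. In CAST/EiJ oligodendrocytes Myo3a was at 522 CPM in the batch 2 mouse, against 628 to 646 CPM for the remaining mice. The Rubcnl level in CAST/EiJ macrophages was 0 CPM in the batch 2 mouse, against 95.0 to 101 CPM for the remaining mice. In the second Drd1+ cluster, Trmt13 in the batch 3 mouse was at 96.4 CPM in 129S1/SvImJ (others 34.3 to 41.6 CPM) and at 84.8 CPM in CAST/EiJ (others 48.6 to 52.4 CPM). Mylk in WSB/EiJ Nxph1+ interneurons was at 127 CPM in the batch 4 mouse and at 0 CPM in the other 3. The interaction of strain and cluster was called for Npsr1 between Drd1+ and Drd2+ neurons (edgeR, adjusted p = 0.0412). It was also called for A330049N07Rik between Drd1+ neurons and astrocytes (edgeR, adjusted p = 0.0134). Both calls are a description, since the genes passed the count filter in Drd1+ neurons only with the CAST/EiJ libraries. The first was lost without batch 2, 3 or 4 and without the mouse block (adjusted p = 1), and the second, whose gene is above the count filter in Drd1+ neurons of CAST/EiJ alone, without batch 2.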

How the results depend on the processing

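Over single genes, 281 adjusted p-values stayed on their side of the threshold and 25 called ones lost the call. With DESeq2 in place of edgeR, the members called fell to 1 in astrocytes and 0 in the second Drd1+ cluster. Without a filter on low counts, 1 member was called in Nxph1+ interneurons and 1 in the Polydendrocyte/Oligodendrocyte cluster. Without the replicate block, which is the mouse in the interactions and the batch that pairs mice in the strain term, 0 members were called in the interaction of Drd1+ and Drd2+ neurons (Npsr1 adjusted p = 1), and Myo3a in Drd2+ neurons lost its call (0.300). Leaving out 1 batch gave 1 to 2 members called in astrocytes, 0 to 1 in macrophages, 0 to 1 in the second Drd1+ cluster, 0 to 1 in endothelium, 0 to 1 in the interaction of Drd1+ and Drd2+ neurons and 0 to 2 in that of Drd1+ neurons and astrocytes. The cause was not tested. These counts of members come without the share of all genes called in the same setting. They are a description and do not set the members apart. The pooled Rubcnl level in oligodendrocytes was 15.8 CPM over nuclei and 24.96 CPM with mice weighted equally. DESeq2 was not run for the interactions, and a minimum of 20 nuclei gave no value for the Polydendrocyte/Oligodendrocyte cluster. Depth limits the genes at a few counts, such as Npsr1 in 5 strains and Mylk in neurons.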
